A study of Mus musculus with 6 samples.

Results

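Neurofilament and neuronal identity genes were followed in the quadriceps of AR97Q mice with and without early exercise. The set held 10 genes out of the 44916 genes and transcripts on the array, namely Nefh, Nefm, Nefl, Prph, Chgb, Gap43, Stmn2, Tubb3, Isl1 and Lhx1. They were found by their symbols or older names through the transcript accession of each probe, and 17 probes measured them. Gene positions are those of the mouse build GRCm38.p6. The genes were chosen by the measured difference between exercise and sedentary mice on these arrays, which was in view when the set was drawn up, so that difference, and every count of calls among these genes, is given here as a description that supports nothing.

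All 6 mice were male, 9 weeks old and carried the AR97Q transgene, a model of a motor neuron and muscle disease, on a C57BL/6J background. The exercise group (n = 3) ran on a forced wheel at 5 m/min for 60 min per day on 5 days per week, from 5 to 9 weeks of age, after 1 week of acclimation, and tissue was taken on the day after the last run. The sedentary group (n = 3) carried the same transgene without the running. Wild-type muscle was not analysed here, so no value below says how far either group lay from healthy muscle. Each mouse gave 1 array, and n counts mice.

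Neurofilaments are the intermediate filaments of axons, built from a light, a medium and a heavy chain, and peripherin joins them in peripheral nerve. Isl1 and Lhx1 are LIM-homeodomain transcription factors that sort motor neurons into columns in the embryonic spinal cord, where Isl1 marks the medial and Lhx1 the lateral division of the limb-innervating motor column. The cell bodies of motor neurons lie in the spinal cord, whereas a muscle sample holds only their axons and endings, together with Schwann cells, muscle fibres and other cells. In such a bulk sample, fewer cells of a type and less RNA per cell cannot be told apart.

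Promoter sequence was held for 5 of the 10 genes, in a RefSeq table of the mouse build GRCm38.p6. The windows of Isl1, Lhx1 and Chgb are printed because these genes were among those with lower signal in the exercise group, and that of Prph because its signal did not separate the groups. Each line gives the 250 bases before the transcript start, 5′ to 3′ on the strand of the gene, and capitals mark matches to the motifs named after them.
Isl1, chr13:116309689-116309938, minus strand: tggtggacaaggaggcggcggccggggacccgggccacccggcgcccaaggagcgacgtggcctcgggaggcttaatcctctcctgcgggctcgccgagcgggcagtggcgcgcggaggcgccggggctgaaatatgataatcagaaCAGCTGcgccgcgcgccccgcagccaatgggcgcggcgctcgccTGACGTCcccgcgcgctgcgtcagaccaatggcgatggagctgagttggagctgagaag
Lhx1, chr11:84525535-84525784, minus strand: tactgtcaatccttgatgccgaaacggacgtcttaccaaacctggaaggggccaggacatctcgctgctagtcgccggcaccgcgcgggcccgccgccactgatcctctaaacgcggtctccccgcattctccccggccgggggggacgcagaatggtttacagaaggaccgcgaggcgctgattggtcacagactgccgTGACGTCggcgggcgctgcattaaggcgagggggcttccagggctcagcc
Chgb, chr2:132781392-132781641, plus strand: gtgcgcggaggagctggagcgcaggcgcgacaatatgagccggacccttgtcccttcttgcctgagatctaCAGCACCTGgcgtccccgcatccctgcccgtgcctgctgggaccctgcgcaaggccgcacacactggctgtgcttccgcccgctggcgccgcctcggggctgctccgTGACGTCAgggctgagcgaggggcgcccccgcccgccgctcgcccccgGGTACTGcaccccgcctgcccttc
Prph, chr15:99054924-99055173, plus strand, before a start inside the annotated gene: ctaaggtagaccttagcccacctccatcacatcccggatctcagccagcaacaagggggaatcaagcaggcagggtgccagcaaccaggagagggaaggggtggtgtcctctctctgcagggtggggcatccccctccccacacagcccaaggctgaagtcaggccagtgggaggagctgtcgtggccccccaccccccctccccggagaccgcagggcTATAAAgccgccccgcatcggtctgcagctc

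The windows, taken with the first 50 bases after the start, were searched on both strands. The E-box was spelled CANNTG. The TATA box was searched as TATAAA and a homeodomain core as TAATTA. Both sides of the REST element were searched, as CAGNACC on one side and as GGACAG on the other. The core of the cyclic AMP response element was spelled TGACGTC. Isl1 had CANNTG at -103 and TGACGTC at -59 from the start, which is 0, to the first base of the match, and Lhx1 had TGACGTC at -50 and none of the others. Chgb had TGACGTC on both strands at -72 and -71, because the match is palindromic, CANNTG at -176 and 30, and CAGNACC at -179 and -24, the first of which overlaps the CANNTG match. Prph had TATAAA at -31 and none of the others, and Tubb3, whose window is not printed, had CAGNACC at -121 and GGACAG at 12. Of all 32851 windows of this length, 72.31% held CANNTG, 13.62% TATAAA, 5.291% TAATTA, 20.37% CAGNACC, 22.18% GGACAG and 3.205% TGACGTC. The last of these was added to the search after the windows had been read, so its presence in 3 of the 5 was not tested, and a match is a description of the letters. The GC content of the 250 bases was 71.2% for Isl1, 64.8% for Lhx1, 72.8% for Chgb, 68% for Tubb3 and 65.2% for Prph, against a median of 52.4% over all windows, and the shares above were not matched on GC content.

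Most of these genes were dim in muscle. Of the 17 probes, 4 were well above background on all 6 arrays, 9 on some arrays and 4 on none. Values below are log2 of the processed signal minus log2 of the 75th percentile of the same array, so that 0 is the level of the 75th percentile. On this scale the lowest signal that the scanner software called well above background was -4.44, -4.48 and -4.45 on exercise arrays 1 to 3. On sedentary arrays 1 to 3 it was lower, at -4.81, -4.84 and -4.84. Counts of arrays well above background thus rest on unlike cutoffs in the groups. The flagged Nefh value of -4.59 on sedentary array 1, for example, lies below the cutoff of each exercise array. Probes called well above background by 3 or more of the 6 arrays were kept, and the brightest kept probe stood for the gene. By this filter 9 of the 10 genes had a value and Nefl did not. A gene that passed only through the group in which it was high had to differ, which holds for Nefh.

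**Figure D1:**
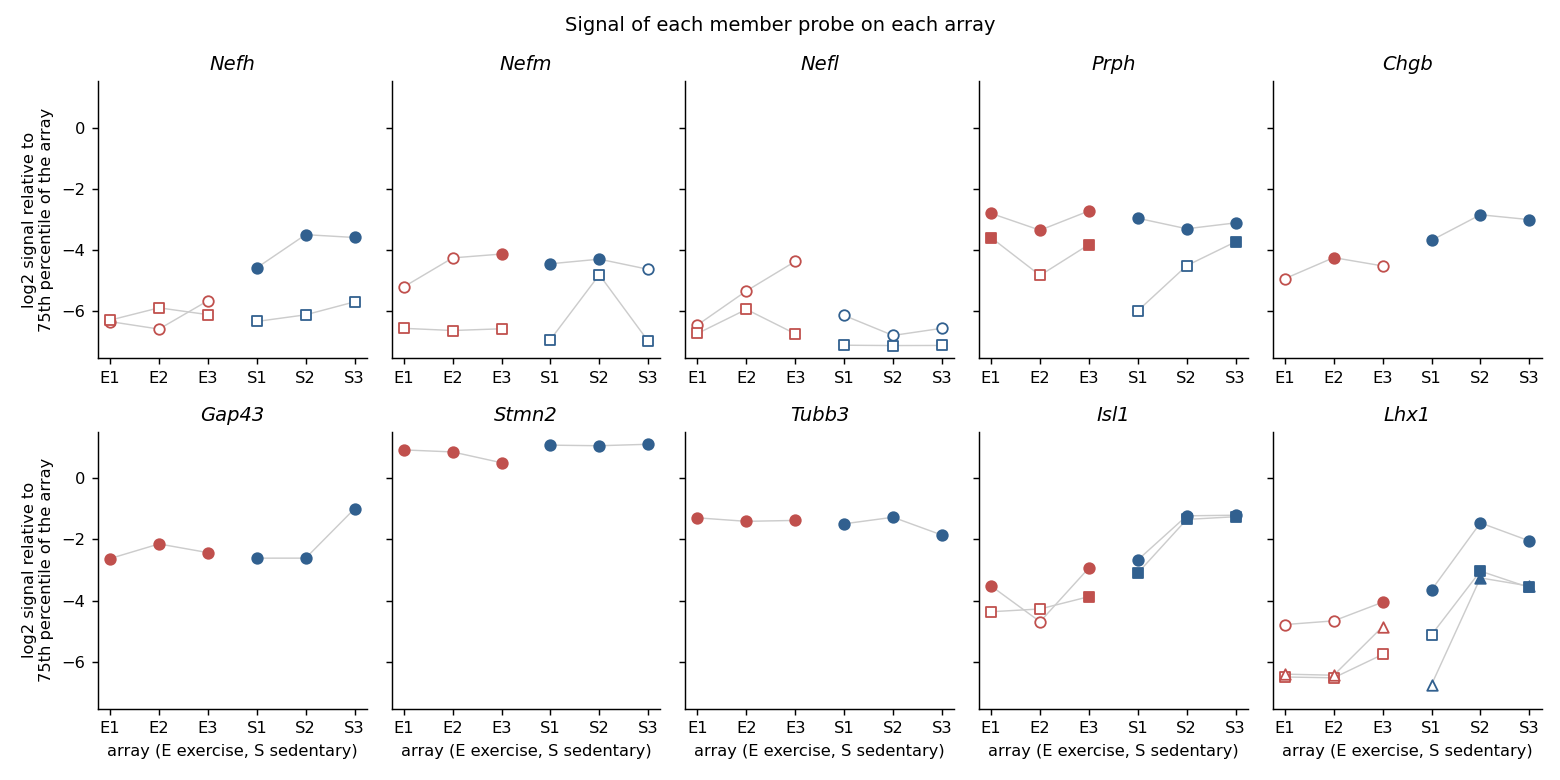
Log2 signal relative to the 75th percentile of the array for every probe of the 10 genes on exercise arrays E1 to E3 (red) and sedentary arrays S1 to S3 (blue), with 1 symbol shape per probe, filled where the spot was well above background and open where it was not. Stmn2, Tubb3, Gap43 and the first Prph probe are filled throughout. The brightest probes of Nefh, Chgb, Isl1 and Lhx1 sit higher on the sedentary arrays, with S1 the lowest of the 3 in each, while the second Nefh probe and the dimmest Lhx1 probe overlap between the groups.

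Nefh (chr11:4938754-4948064) encodes the heavy chain, the subunit with the long phosphorylated tail that spaces filaments in large axons. Its first probe read -6.35, -6.59 and -5.66 on the exercise arrays and -4.59, -3.50 and -3.59 on the sedentary arrays. There was no overlap, sedentary array 1 read lowest among the sedentary arrays, and 0 of 3 exercise but 3 of 3 sedentary arrays had the probe well above background. In processed signal units these are 3.16, 2.66 and 4.95 against 12.9, 32.8 and 31.8, a few units next to a 75th percentile of 251 to 384.

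No exercise array had the probe well above background, so its level there is uncertain. With the lowest signal well above background on each exercise array put in its place, Nefh came out 1.48-fold lower in the exercise group. That fold is no strict bound, since with normexp background correction the difference was -0.08. The measured difference of the means was -2.31 (SE 0.36). The second Nefh probe, on the same transcript, was well above background on no array and differed by -0.05, so the pattern of Nefh rests on 1 probe.

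Of the other neurofilament chains, the medium chain did not separate the groups and the light chain could not be measured. Nefm (chr14:68119545-68125004), the medium chain, read -5.21, -4.26 and -4.13 in the exercise group and -4.45, -4.30 and -4.63 in the sedentary group, a difference of -0.07 (SE 0.29) with full overlap, and it was well above background on 1 and 2 arrays. Its second probe was above background on none. Nefl (chr14:68083863-68089095), the light chain on which the other chains assemble, had 2 probes, neither of them well above background on any array, so no difference is given for it.

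Prph (chr15:99053579-99058978) encodes peripherin, the intermediate filament of peripheral and autonomic axons. It read -2.80, -3.35 and -2.72 in the exercise group against -2.96, -3.31 and -3.11 in the sedentary group, all well above background, and the groups overlapped. The difference was 0.17 (SE 0.19). A dimmer second probe, well above background on 2 exercise and 1 sedentary arrays, differed by 0.66, also with overlap.

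Among the genes of axon growth and the neuronal cytoskeleton, signal was brighter and the differences were small. Stmn2 (chr3:8509527-8561604) encodes stathmin-2, a microtubule regulator of growth cones and of axons that regenerate. It read 0.93, 0.86 and 0.51 in the exercise group and 1.09, 1.07 and 1.12 in the sedentary group. There was no overlap between them, the difference was -0.32 (SE 0.13), and the SD was 0.23 over the exercise arrays against 0.02 over the sedentary arrays.

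Gap43 (chr16:42248552-42340651), the growth-associated protein of axon terminals that Schwann cells of denervated endings also make, read -2.62, -2.15 and -2.43 in the exercise group. In the sedentary group it read -2.61, -2.61 and -0.995. Sedentary array 3 stood apart while the other two sedentary arrays lay near the lowest exercise array, so the difference of -0.33 (SE 0.45) came from 1 mouse, and against sedentary array 1 alone it was 0.21.

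Tubb3 (chr8:123411553-123422015), the class III beta-tubulin of neurons, read -1.29, -1.41 and -1.38 in the exercise group and -1.49, -1.27 and -1.86 in the sedentary group. The groups overlapped, with a difference of 0.18 (SE 0.16).

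Chgb (chr2:132781642-132795079) encodes chromogranin B, a matrix protein of the dense-core granules in which neurons and endocrine cells store peptides and amines. It read -4.94, -4.25 and -4.52 in the exercise group and -3.69, -2.85 and -3.01 in the sedentary group. No exercise array reached the lowest sedentary array, and Chgb was well above background on 1 of 3 exercise and 3 of 3 sedentary arrays. The difference was -1.39 (SE 0.27).

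Isl1 (chr13:116298270-116309688) read -3.52, -4.69 and -2.93 in the exercise group and -2.67, -1.23 and -1.21 in the sedentary group. Sedentary arrays 2 and 3 were far above the rest, whereas sedentary array 1 lay close to the highest exercise array. The difference was -2.02 (SE 0.57). The second probe of Isl1 read -4.37, -4.27 and -3.87 against -3.10, -1.34 and -1.25, a difference of -2.27, and thus both probes ordered the groups alike without overlap.

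Lhx1 (chr11:84517975-84525534) showed the same spacing of arrays. Its brightest probe read -4.79, -4.66 and -4.05 in the exercise group and -3.65, -1.46 and -2.05 in the sedentary group, a difference of -2.12 (SE 0.56) without overlap. Of its other probes, both of which were well above background on 0 of 3 exercise and 2 of 3 sedentary arrays, one differed by -2.35 without overlap and the other by -1.39 with overlap, since on sedentary array 1 it read lowest of all 6 arrays.

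The noncoding gene Lhx1os, which is not one of the 10 genes and was looked at after the values of Lhx1 had been seen, starts 125 bases from the start of Lhx1 on the other strand, at chr11:84525660-84535831, so the Lhx1 window printed above includes its first bases. It was well above background on 0 of 3 exercise and 3 of 3 sedentary arrays, with a measured difference of -2.76. With exercise values raised to the lowest signal well above background where they lay below it, Lhx1os came out 4.69-fold lower in the exercise group, again no strict bound. Lhx1os also stands on the study's list of largest decreases and passed the filter only through the sedentary arrays, so its difference is a description too and no separate support for that of Lhx1.

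Set against each other, the 9 genes with a value ran from -2.31 for Nefh to 0.18 for Tubb3, with a median of -0.33, beside a median of 0.03 over the 25005 genes and transcripts fitted. In that fit, with limma on the log2 values, a gene was called at an adjusted p under 0.05 and an absolute log2 difference of at least 1. Nefh, Chgb and Lhx1 were called lower, 3 of the 9, where 1.06% of all genes fitted were called lower, and 0 were called higher, where 1.72% of all were. Nefh entered the fit only through the sedentary arrays, and nothing is read from these counts, since the genes were chosen on the same difference. Lhx1 lay just inside this threshold and Isl1 just outside it. The groups did not overlap, with exercise lower, for 5 of the 9 (Nefh, Chgb, Stmn2, Isl1 and Lhx1), against 18.2% of all genes, and with exercise higher for 0, against 25% of all. All 3 calls were lost with the strip as a block and when any array other than sedentary array 1 was left out. Over all genes fitted, the strip block called 3 lower and 0 higher, and leaving out any 1 of those arrays called at most 1 lower and 0 higher. The loss of calls was thus not particular to these genes. With normexp background correction, which adds an offset of 50 to every spot, Nefh was -0.08 and Chgb -0.10. Across all the scalings and background corrections run, normexp included, Nefm ran from -0.54 to 0.27, Gap43 from -0.80 to 0.05, Prph from -0.31 to 0.27 and Tubb3 from -0.29 to 0.27, so no direction is given for these 4. Of the genes, 4 (Nefh, Chgb, Isl1 and Lhx1) stand on a list of the largest decreases that the study drew from these same arrays.

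The array positions in the scanner headers placed the arrays in 2 strips of 1 slide, and whether the strips were handled separately is not known. The first strip held exercise arrays 1 to 3 and sedentary array 1, and the other held sedentary arrays 2 and 3. Within the first strip, the exercise mean was below sedentary array 1 by a log2 difference of -1.61 for Nefh, -0.89 for Chgb, -1.05 for Isl1, -0.85 for Lhx1 and -0.32 for Stmn2. Against sedentary arrays 2 and 3 the values were -2.65, -1.64, -2.50, -2.75 and -0.32 in the same order. All but Stmn2 were therefore further apart across the strips than within the first strip, by over 1.5 times, and the parts of the strip and of the individual mice in that gap cannot be told apart with 1 sedentary mouse in the first strip.

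**Figure D2:**
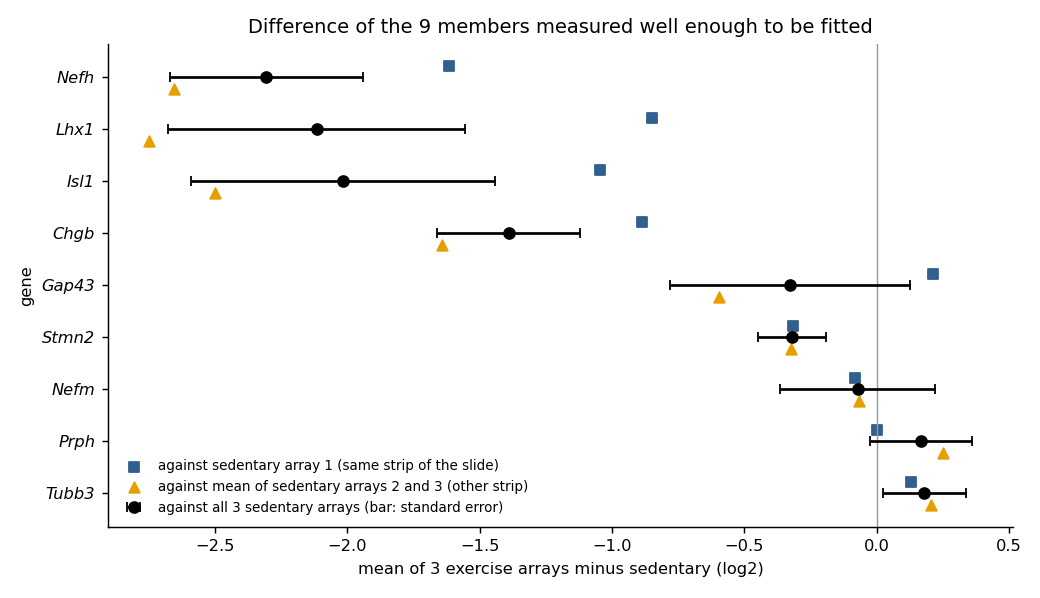
Difference of the exercise mean (n = 3) from the sedentary arrays on the log2 scale for the 9 genes with a value, against all 3 sedentary arrays (black, bar 1 standard error), against sedentary array 1 of the same strip (blue squares) and against sedentary arrays 2 and 3 of the other strip (orange triangles). Nefh, Lhx1, Isl1 and Chgb are below 0 in all 3 comparisons and closest to 0 against sedentary array 1, where Gap43 turns to 0.21.

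Genes of the same roles were taken from lists of 117 other genes, of which 88 had a value. By limma 4 of them were called lower, Pax6 having passed the filter only through the sedentary arrays, and 1 was called higher (4.55% and 1.14%, next to the 1.06% and 1.72% of all genes given above), and the median difference was -0.11. Without the minimum of 1 on the log2 difference, 13 were lower and 2 higher, 14.8% and 2.27% of the 88, where 6.15% and 11.5% of all genes were. Of the lists, 3 genes (Slc18a1, Pax6 and Lhx8) also stand on the study's list of largest decreases, so they are not independent evidence of a direction. With the strip as a block 0 lower and 0 higher were called, as was the case with any 1 array other than sedentary array 1 left out. Calls over all genes fell likewise in these fits, to the totals given above.

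Among 17 LIM-homeodomain and motor neuron transcription factors with a value, 2 were called lower. Isl2, the close relative of Isl1 in motor neurons, read -4.07, -3.53 and -3.25 in the exercise group and -2.55, -1.21 and -1.47 in the sedentary group, and fell by 1.87 on the log2 scale (SE 0.39, limma adjusted p = 0.0303). Pax6, a paired-homeodomain factor of ventral spinal progenitors, read -6.53, -6.20 and -5.59 against -4.51, -2.45 and -2.95, with 0 of 3 exercise arrays well above background. With the same substitution as for Nefh, Pax6 came out 2.22-fold lower in the exercise group, which is no strict bound, and the measured difference was -2.80 (SE 0.55). Like Nefh it passed the filter only through the sedentary arrays, so it had to differ and its call is no test. Both had sedentary array 1 as the lowest of its group, like Isl1 and Lhx1.

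Over the whole list the median was -0.12, or -0.02 against sedentary array 1 of the same strip, with 9 genes below 0 and 8 above. Lmx1b was higher by 0.71 (limma adjusted p = 0.0353, under the minimum of 1), and Lhx3, the partner of Isl1 in motor neuron specification, differed by 0.42 (limma adjusted p = 0.0554). The probes of Lhx8 opposed each other, the brighter at 0.47 and the other at -2.11. A further 9 factors, Mnx1 (the motor neuron factor Hb9) among them, were well above background on no array.

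Of 12 secretory granule genes with a value, 1 was lower and 1 higher. Slc18a1, a vesicular monoamine transporter of endocrine cells, read -3.09, -3.58 and -3.57 in the exercise group and -1.90, -0.23 and 0.00 in the sedentary group, and fell by 2.70 on the log2 scale (SE 0.50, limma adjusted p = 0.0256), with its second probe at -2.74. Pcsk1n, the inhibitor proSAAS of a prohormone convertase, moved the other way, at 4.44, 4.16 and 4.48 against 3.05, 2.69 and 2.37, a rise of 1.66 on the log2 scale (SE 0.19, limma adjusted p = 0.0234). Chga, chromogranin A and the relative of Chgb, differed by -0.06 (SE 0.63), and Scg2 was above background on no array. The median of the list was -0.13, or -0.14 against sedentary array 1 of the same strip.

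Of 15 axon growth genes with a value, 1 was lower, with a list median of -0.28, or -0.06 against sedentary array 1 of the same strip. Nrcam, a cell adhesion molecule of nodes and growing axons, read -1.05, -0.93 and -0.63 in the exercise group and -0.02, 1.27 and 1.48 in the sedentary group, and fell by 1.78 on the log2 scale (SE 0.40, limma adjusted p = 0.0338). The adhesion molecule L1cam (-0.70, with a second probe at 0.72), Nrn1 (-0.64) and Dpysl4 (-0.56) had a limma adjusted p under 0.05 with smaller differences. None of the 16 axonal cytoskeleton and transport genes reached the minimum of 1, but 5 had an adjusted p under 0.05, all of them lower. These were the dynein chain Dync1i1 (-0.94), the kinesins Kif1a (-0.84) and Kif5a (-0.77) and the microtubule-associated Mapt (-0.55) and Map2 (-0.48). The median of this list was -0.33, or -0.16 against sedentary array 1 of the same strip. Ina, the internexin filament that assembles with neurofilaments, differed by 0.36 without passing.

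General neuronal genes passed the test in neither direction. Of 15 pan-neuronal and synaptic vesicle genes, 0 had a limma adjusted p under 0.05 (0 were lower and 5 higher at an unadjusted p under 0.05), and the median was 0.15, or -0.03 against sedentary array 1 of the same strip. The synaptosome protein Snap25 differed by 0.15 (SE 0.11) and the vesicle protein Syp by 0.30 (SE 0.10). The 4 cholinergic genes with a value had a median of 0.48, which was 0.02 against sedentary array 1 of the same strip, and 0 passed in limma (0 lower and 2 higher at an unadjusted p under 0.05), with Chat, the acetylcholine synthetic enzyme of motor neurons, at 0.42 (SE 0.24) and the vesicular transporter Slc18a3 at 0.60 (SE 0.20). Slc5a7, the choline transporter, was above background on no array. REST, the repressor of neuronal genes in other tissues, differed by -0.16 (SE 0.08), and of 9 genes of its complex 0 were called, with Rcor1 at -0.41 (limma adjusted p = 0.0346) under the minimum of 1. The median of these 9 was -0.16, or -0.09 against sedentary array 1 of the same strip.

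**Figure D3:**
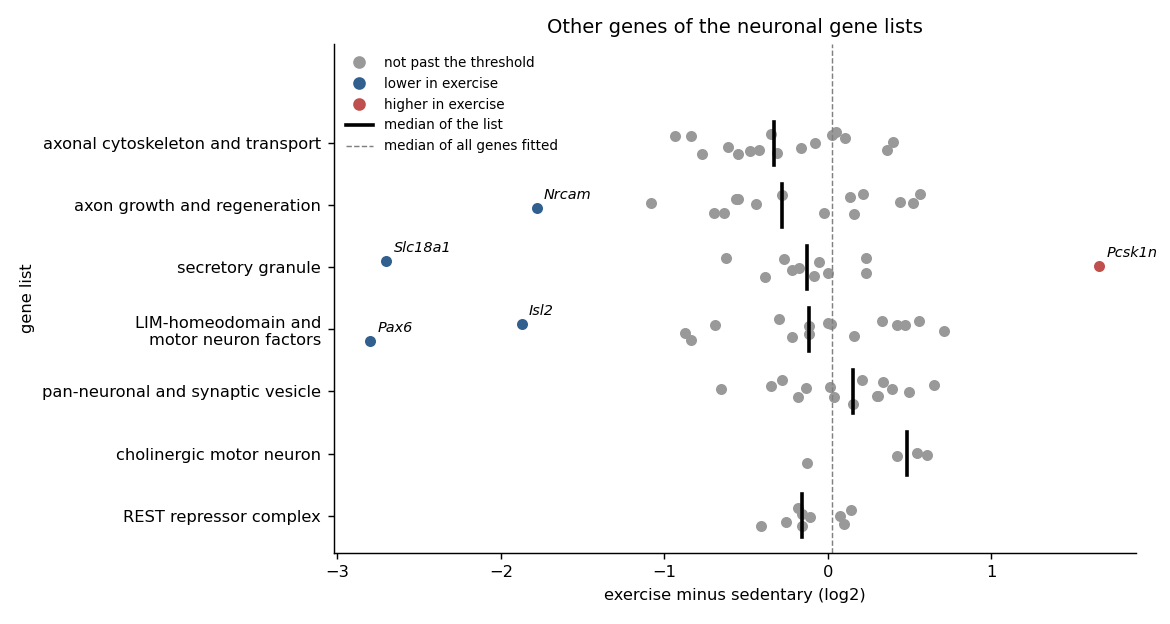
Log2 difference between exercise and sedentary for each gene with a value in 7 lists of neuronal genes other than the 10, coloured where lower (blue) or higher (red) by limma, with the median of each list (black bar) and of all genes fitted (dashed, 0.03). Nrcam, Slc18a1, Isl2 and Pax6 are the 4 lower genes and Pcsk1n the higher one, and the medians run from -0.33 for the axonal cytoskeleton to 0.48 for the cholinergic list.

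Markers of the cells in the sample moved with these differences as follows. Of 10 genes of immature or denervated muscle fibres, 7 were lower in the exercise group by limma, among them Chrng, Chrna1, Chrnd, Myh3, Runx1 and Sln, with a median difference of -1.60, and -0.72 within the first strip. Their summed signal, in units of the array's 75th percentile, was 51.7 to 55.5 on the exercise arrays and 88.9, 228 and 254 on sedentary arrays 1, 2 and 3. Sedentary array 1 thus lay nearest to the exercise arrays, as it did for Nefh, Chgb, Isl1 and Lhx1. Chrng, the fetal acetylcholine receptor subunit, differed by -3.62, and within the first strip by -1.82. The probes of Myh3 opposed each other, the fitted one at -2.35 and the other kept one at 0.92, so its fall rests on 1 probe. The further kept probes of Chrng, Runx1 and Ncam1, another gene of this list, were lower like the fitted ones. The part of muscle fibres in the signal of the 4 neuronal genes was not tested.

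Schwann cell markers summed to 45.6 to 55.6 in the exercise group and 52.4 to 68.1 in the sedentary group. Of 11 with a value 0 were called, although genes such as Ngfr (-0.70) had a limma adjusted p under 0.05 with a smaller difference. Of these 11, 10 were below 0, with a median of -0.34, and -0.48 against sedentary array 1 of the same strip. Gfap was above background on no array. The 9 neuron markers summed to 19.3 to 19.7 in the exercise group and 15.8 to 19.4 in the sedentary group. Most of each sum was Snap25 alone, at a log2 level of 3.74 to 4.05, where the next, Syp, was at 0.77 to 1.23. Of the 7 with a value 0 were called, the median was 0.31, and the defining Slc5a7 and Mnx1 were above background on no array. Those 7 also stand on the pan-neuronal and cholinergic lists above, so they add no separate evidence. Mature muscle fibre markers summed to 6421 to 7225 against 3015 to 4505, with 3 of 10 higher (Ckm, Mb and Pvalb). Satellite cell markers, led by Pax7 at -0.60 (limma adjusted p = 0.0255), summed to 7.28 to 7.74 against 9.20 to 10.8 with 0 of 4 called. Sums for macrophages, endothelial cells, adipocytes and fibroblasts overlapped between the groups, and 0 of their genes were called. All 6 adipocyte markers were nevertheless below 0, with a median of -0.85, and -0.78 against sedentary array 1. The part of each of these in the differences above was not tested.

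**Figure D4:**
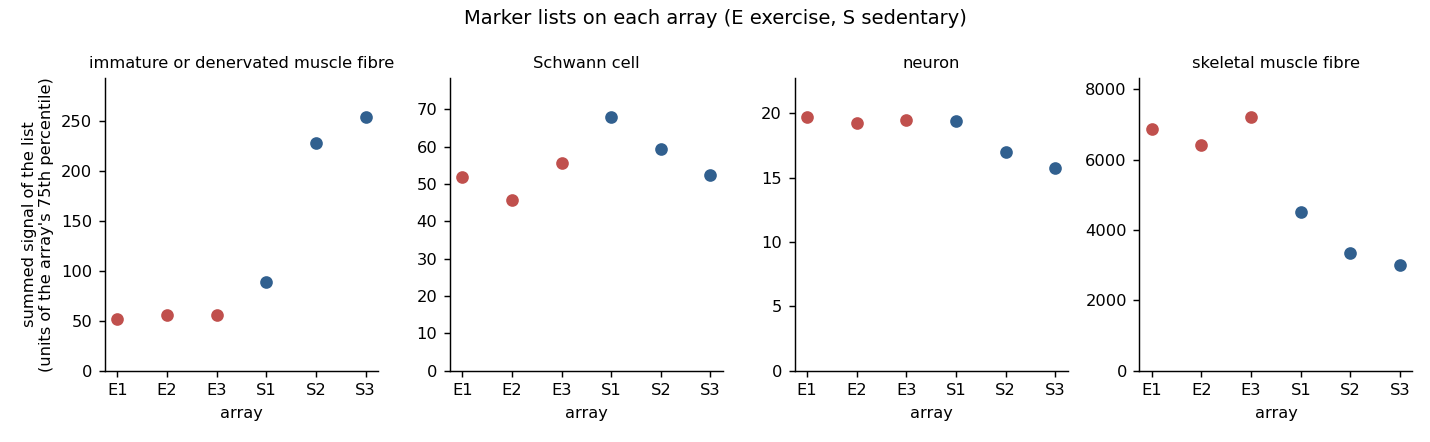
Summed signal of 4 marker lists on each array, in units of the 75th percentile of the array, for exercise arrays E1 to E3 (red) and sedentary arrays S1 to S3 (blue), each panel on its own axis from 0. The immature or denervated fibre list rises from 51.7 to 55.5 on the exercise arrays to 88.9, 228 and 254 on S1, S2 and S3. The neuron list, most of which is the signal of Snap25, stays between 15.8 and 19.7.

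The level over the arrays was used to find the genes nearest to each transcription factor, by the root mean square of the log2 differences after each gene had been centred on its mean over the 6 arrays. Nearest to Isl1 were the named genes H3c8, Nrip3, Gm12295 and Myh3, at 0.22 to 0.26, and among those nearest to Lhx1 were Tro (0.26), Sln (0.30) and Slc2a5 (0.31). Isl1 and Lhx1 were chosen for their difference between the groups over these same arrays, so genes with a like difference come out nearest by construction, and nothing more is read from their names. Lhx1 itself ranked 26 among the genes nearest to Isl1, at 0.47.

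As for the arrays themselves, processed signal at the 75th percentile ran from 251 to 257 in the exercise group and from 310 to 384 in the sedentary group. The share of probes well above background was 54.6% to 57.4% on the exercise arrays and 57.8% to 59.9% on the sedentary arrays, without overlap, and 0 spots were saturated. The number of arrays limits the precision. Each limma p-value sets the difference of the means against a variance from 3 mice per group that is moderated over all genes fitted. In the sedentary group that variance also holds any difference between the strips. In the whole fit 265 genes were lower and 429 higher. With the deposited table's scaling, 553 were lower and 237 higher.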

How the data were processed

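Quadriceps RNA of 6 mice was labelled with Cy3 by the authors and hybridized to 1-colour Agilent arrays. The deposited scanner files, made with Feature Extraction 12.1.0.3, hold for each spot a background-subtracted processed intensity on a linear scale with flags. The authors also deposited a table of linear intensity values, which equal the processed signal times 1 factor per array (1.33 to 1.88) and served as an alternative.

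Here 3671 control spots and outlier spots were left out, spots of a probe were averaged as log2, and the 75th percentile of each array was subtracted. Of 56583 probes, 34551 were named through RefSeq accessions, which gave gene positions too, and the rest kept the file's identifier. Probes that 3 or more arrays flagged as well above background stayed in (32726), the brightest per gene was fitted with limma 3.58.1 in R 4.3.3 (lmFit, eBayes, Benjamini-Hochberg over 25005), and a call needed an adjusted p under 0.05 and a log2 difference of at least 1. On simulated data of this comparison with 200 of 25005 genes changed by 2 on the log2 scale, 93% were recovered with 6 false calls. The simulated noise was independent between arrays and held no strip effect and no background floor, so these figures need not hold for the dim genes here.

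All 10 genes were named, and from the lists those past the threshold plus defining members. The genes and lists were chosen with earlier results of these data known. Alternatives covered scaling, background correction, the filter, probe choice, the statistics, the strip, replicate numbers and each array left out. Some items are not reported here.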

Additional observations from a re-analysis of the deposited data

How the results depend on the processing

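Nefh, Chgb, Isl1 and Lhx1 were below 0 under every alternative in which they had a value, but the calls did not hold. These genes were chosen for this difference. Their groups do not overlap, so leaving out 1 array could not turn the sign, and the sign is given as a description only. With each array left out in turn, the count of the 10 genes called lower ranged from 0 to 4. It was 4 without sedentary array 1 (Isl1 joining) and 0 without any one of the other arrays, where 4 to 5 of the 9 had an unadjusted p under 0.05 by limma. It was 0 with normexp background correction (5 at unadjusted p), where Nefh was -0.08 and Chgb -0.10, 0 with the replicate number as a block (4) and 0 with the strip as a block (2). The count was also 0 among the 4 genes well above background on all arrays (1 at unadjusted p). That filter left out Nefh, Chgb, Isl1 and Lhx1, so it could not show whether their calls hold. Prph, Tubb3, Nefm and Gap43 changed sign under at least 1 setting. The median of the genes, -0.33, was -0.80 with no scaling between arrays, which itself moved the median of all genes to -0.45, and -0.60 to -0.31 with 1 array left out.

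For the other neuronal genes, 4 lower became 15 with no scaling, 13 by adjusted p alone, 0 with the replicate number as a block (33 genes in either direction at unadjusted p) and 0 with the strip as a block (12), and 0 to 5 with 1 array left out (5 without sedentary array 1). The 1 higher became 2 by adjusted p alone, 0 under either block, and 0 to 1 with 1 array left out. Over all genes the replicate block called 0 lower and 0 higher and the strip block 3 and 0. Without sedentary array 1, 481 were lower and 715 higher over all genes, and without any one of the other arrays at most 1 was lower and 0 higher. With normexp background correction the totals were 60 lower and 192 higher, and with no scaling 2194 and 127. Arrays of the same replicate number in the groups shared little (correlations of deviations 0.02, 0.08 and 0.04), so the numbers were not taken as a pairing. The cause of these changes was not tested. Signal near background limits every probe that was not well above it on all arrays.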
